A study of Homo sapiens with 6 samples.

Results

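The zinc finger genes of chromosome 19 described here were the protein-coding genes of that chromosome in GENCODE Release 44 whose symbol is ZNF followed by a number and at most 1 letter, selected on a mean level of at least 1 TPM over 6 RNA–Seq libraries. TPM is a level per unit of transcript length, scaled to the same total in each library. The annotation holds 246 genes with such a symbol on chromosome 19, and 136 of them reached that level. These 136 members stood among 14020 genes that reached 1 TPM and among 62700 genes in the files. The list was drawn up with the rise of *ZNF114* known, so the change of *ZNF114* is given as a description without a test.

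The libraries came from SK–Hep–1 cells, an adherent line established from a liver tumor that the study calls endothelial-derived. The labels give 3 control libraries, with shControl in the title and WT as genotype, and 3 libraries with shRAB30-DT in the title and RAB30-DT knockdown as genotype, where *RAB30-DT* is a long non-coding RNA. Per the methods, shRNAs were delivered by lentivirus with puromycin selection of stable lines, and the labels do not say which of the RAB30-DT shRNAs was sequenced. Nothing in the labels says that replicates were separate cultures, so p–values measure only the spread between these libraries.

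*RAB30-DT* itself was listed at 18.2, 11.5 and 13.9 TPM in the controls and at 11.9, 10.9 and 6.5 TPM in the knockdown libraries, in order of replicate number as in all such series of values here. The groups overlapped, with −0.55 on the log2(TPM + 1) scale (limma, standard error 0.27, adjusted p = 0.355). All 6 mesenchymal markers examined had means of at least 1 TPM, from 1.34 TPM for *COL1A1* to 4249 TPM for *VIM*. Means of the 5 endothelial markers were at most 0.217 TPM, and of 8 hepatocyte markers *SERPINA1* alone reached 1 TPM, with *ALB*, *HNF4A*, *TTR*, *APOB*, *KDR* and *PECAM1* at or near 0. The endothelial description of the line was therefore not visible in these markers. The summed markers were 19.8 to 25.1 TPM in control and 28.7 to 38.1 TPM in knockdown libraries for the hepatocyte list and 0.13 to 0.22 TPM against 0.36 to 0.38 TPM for the endothelial list, and their part in the values that follow was not tested.

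A C2H2 zinc finger folds around a zinc ion held by a pair of cysteines and a pair of histidines, and proteins with arrays of such fingers read long DNA motifs. Most human genes of this kind also encode a KRAB domain, which recruits TRIM28 (KAP1) and through it the histone methyltransferase SETDB1, HP1 proteins and histone deacetylases, and silences chromatin at bound sites, many of them in transposable elements. The family grew by tandem duplication, and human chromosome 19 carries many of its arrays of neighbouring copies. *ZNF274*, one of the members, is known to bind the 3′ ends of zinc finger genes in these arrays and to bring SETDB1 to them.

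Promoter sequences from RefSeq (GRCh38.p14), from 250 bases before to 50 bases after a start site, were found for 216 of the 246 genes. Those of 4 genes are shown in 5′ to 3′ direction with every CG in capitals, because whole stretches of the chromosome were listed at 0 and CpG density is the feature of a promoter most often compared with its activity. *ZNF581* and *ZNF428* were the highest members of the 2 largest arrays in which most genes were members, and *ZNF701* and *ZNF91* had a number of CG in the middle of those in the longest stretch of genes at 0 in each of 2 other arrays, whose medians were 26 and 11.5. They lie at chr19:55643399-55643698 on the plus strand, chr19:43619580-43619879 on the minus strand, chr19:52570037-52570336 on the plus strand and chr19:23395422-23395721 on the minus strand.
ZNF581: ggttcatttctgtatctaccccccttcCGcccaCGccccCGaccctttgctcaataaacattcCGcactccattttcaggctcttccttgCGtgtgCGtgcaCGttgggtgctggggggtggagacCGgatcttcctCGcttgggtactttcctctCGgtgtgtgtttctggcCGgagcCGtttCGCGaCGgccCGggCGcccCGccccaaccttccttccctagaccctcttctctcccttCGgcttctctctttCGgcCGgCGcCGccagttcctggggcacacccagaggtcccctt
ZNF428: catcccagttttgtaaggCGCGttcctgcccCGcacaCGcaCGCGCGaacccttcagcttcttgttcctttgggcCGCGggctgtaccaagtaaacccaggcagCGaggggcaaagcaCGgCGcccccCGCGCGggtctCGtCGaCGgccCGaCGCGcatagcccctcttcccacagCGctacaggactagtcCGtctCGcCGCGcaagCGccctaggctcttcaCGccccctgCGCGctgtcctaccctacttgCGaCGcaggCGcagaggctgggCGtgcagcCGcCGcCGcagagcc
ZNF701: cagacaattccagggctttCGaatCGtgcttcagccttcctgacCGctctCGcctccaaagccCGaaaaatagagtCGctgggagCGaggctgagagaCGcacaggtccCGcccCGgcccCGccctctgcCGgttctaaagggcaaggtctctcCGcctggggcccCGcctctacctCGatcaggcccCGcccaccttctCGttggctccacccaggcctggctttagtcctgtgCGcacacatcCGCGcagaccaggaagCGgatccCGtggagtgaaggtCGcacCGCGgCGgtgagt
ZNF91: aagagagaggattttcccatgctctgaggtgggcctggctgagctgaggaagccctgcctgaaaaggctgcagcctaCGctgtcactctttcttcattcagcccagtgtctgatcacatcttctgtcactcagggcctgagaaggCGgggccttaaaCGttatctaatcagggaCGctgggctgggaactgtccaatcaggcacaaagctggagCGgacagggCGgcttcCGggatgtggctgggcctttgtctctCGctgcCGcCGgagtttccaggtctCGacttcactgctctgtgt
CG, which reads the same on both strands, occurred 23 times in *ZNF581*, 37 times in *ZNF428*, 26 times in *ZNF701* and 11 times in *ZNF91*, a known repressor of retrotransposons. Over the 35116 promoters of the table the median was 14, and 96% held at least 1 CG. *ZNF701*, listed at 0, thus had more CG than *ZNF581*, one of the highest members. Both of these windows belong to start sites inside the gene. The GENCODE starts used for the clusters are 52555822 for *ZNF701* and 55635459 for *ZNF581*. Members had a median of 22 CG (123 promoters) and the other chromosome 19 ZNF genes a median of 17 (93 promoters). The latter differed by stretch. Genes at 0 had a median of 26 (20 promoters) from *ZNF610* to *ZNF813* and of 11.5 (10 promoters) from *ZNF429* to *ZNF91*.

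Levels differed between stretches of the chromosome. Of the 246 genes, 80 (32.5%) were listed at 0 TPM in all 6 libraries and 30 more lay above 0 in some library with a mean under 1 TPM. The share at 0 was 12.2% among 262 ZNF genes of other chromosomes and 21.9% among 1230 other protein-coding genes of chromosome 19. Genes were ordered by start site and split into clusters wherever neighbouring starts lay more than 1 Mb apart, which gave 16 clusters. All 24 genes of the cluster from *ZNF575* to *ZNF296* were members and 53 of 59 genes of the cluster from *ZNF628* to *ZNF446*, next to the long-arm telomere. By contrast, 4 of 37 genes were members from *ZNF101* to *ZNF254*, 6 of 39 from *ZNF175* to *ZNF331* and 6 of 25 from *ZNF653* to *ZNF490*. The cluster from *ZNF146* to *ZNF573* lay between these, with 13 members among 26 genes.

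**Figure D1:**
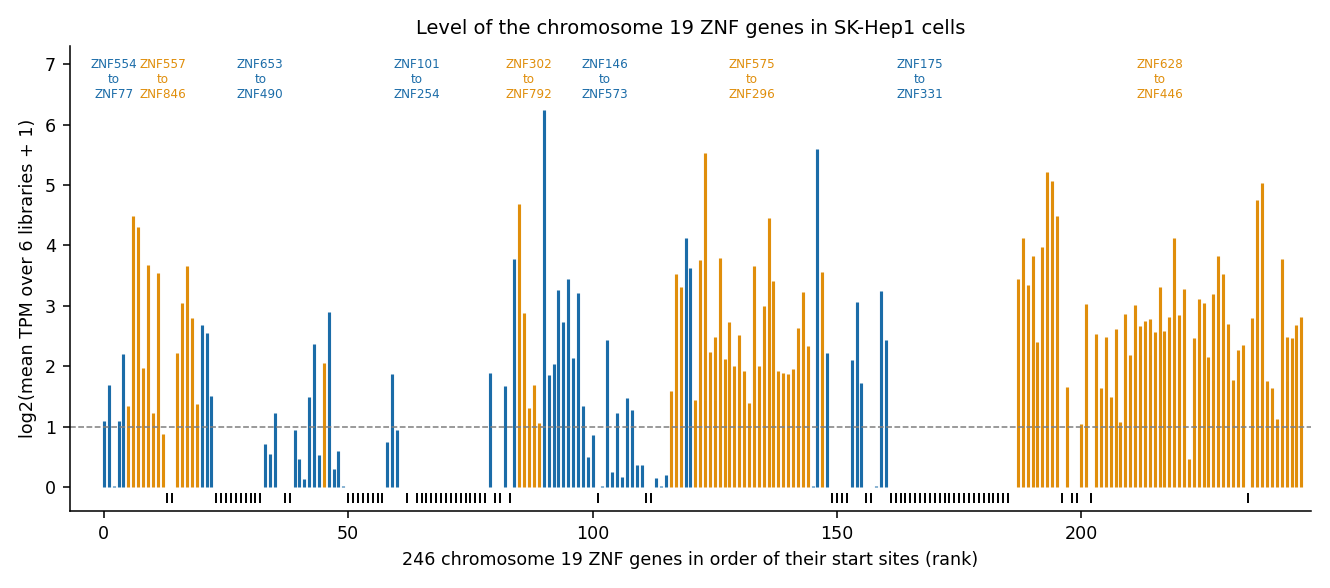
Mean level of the 246 chromosome 19 ZNF genes, as log2(mean TPM over 6 libraries + 1), against their rank in order of start sites. Colors alternate between clusters, black ticks mark the 80 genes listed at 0 TPM in all 6 libraries and the dashed line marks 1 TPM, and the ticks gather in the clusters from *ZNF653*, *ZNF101* and *ZNF175*.

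Most of the genes listed at 0 stood in unbroken runs. Runs of at least 5 neighbouring ZNF genes held 58 of the 80. The longest ran over 25 genes from *ZNF610* to *ZNF813*, with starts from 52336243 to 53467733 on hg38, and included *ZNF83*, *ZNF160* and *ZNF701*. The others held 15 genes from *ZNF429* to *ZNF91*, 10 from *ZNF441* to *ZNF844* and 8 from *ZNF93* to *ZNF85*. Nearly every other annotated gene inside them, of any type, was listed at 0 as well. Above 0 were 1 of 71 annotated genes from *ZNF610* to *ZNF813* and 3 of 96 from *ZNF429* to *ZNF91*. From *ZNF441* to *ZNF844* it was 0 of 21, and from *ZNF93* to *ZNF85* 2 of 49. These totals include the ZNF genes of each run, which are at 0 by definition, so they overstate the contrast with the whole annotation. There, 43.7% of the 62700 genes in the files were above 0 in some library. The borders were steep in places, as *ZNF480*, the gene before *ZNF610*, had a mean of 4.41 TPM and *ZNF675*, the gene after *ZNF91*, 2.71 TPM. Sequence shared with other genes was low in the runs, with medians of 0.841% to 3.18% of the 75-base words of a gene's canonical transcript. An entry of 0 is not read here as absence of RNA, because *MPHOSPH8*, a broadly expressed silencing gene of chromosome 13, was also listed at 0 in every library, while 15 of 15 housekeeping genes examined were above 0 in all 6 libraries.

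Among the members themselves the levels spread from 1.07 to 74.6 TPM on average, with a median of 4.97 TPM and quartiles of 2.71 and 9.03 TPM, against a median of 15.5 TPM over all 14020 genes. The threshold left *ZNF470* (1.07 TPM) and *ZNF792* (1.10 TPM) just inside and *ZNF799* (0.937 TPM) and *ZNF431* (0.933 TPM) just outside. In both groups 133 of 136 members had a mean of at least 1 TPM, and 117 reached it in all 6 libraries. *ZNF554* and *ZNF470* passed through the knockdown libraries only, and *ZNF57* through the controls only.

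The highest member was *ZNF146*, which encodes a short protein made almost wholly of zinc fingers. It was listed at 103, 78.4 and 64.0 TPM in control and 73.8, 65.7 and 62.6 TPM in knockdown libraries. The groups overlapped, and control replicate 1 stood highest. *ZNF428* followed *ZNF114* in order of level, with 34.8, 54.5 and 78.2 TPM in control and 27.7, 37.7 and 39.1 TPM in knockdown libraries. These groups overlapped as well, and the lowest value of each came from replicate 1. *ZNF581*, *ZNF787*, *ZNF544*, *ZNF274* and *ZNF302* came next, with means from 36.3 down to 24.7 TPM. In all, 11 members averaged at least 20 TPM and 30 at least 10 TPM. Ranges over the 6 libraries overlapped between neighbours in this order.

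Members differed in the proteins they encode. Translation of the canonical coding sequences gave 170 to 1090 residues (median 568.5) with 1 to 29 matches to the C2H2 finger pattern (median 11), and 102 of 136 also held a match to a KRAB A box pattern. The pattern is not complete, since *ZNF180* and *ZNF461*, which carry a KRAB domain by common annotation, were missed. Among the 110 genes below 1 TPM, 99 held the match and the median number of fingers was 13.5. The 34 members without a match had a median of 9.53 TPM, and those with one 4.47 TPM. They also differed in base composition, with a median exonic GC content of 59.3% without and 44.01% with the match. *ZNF428*, with 1 finger match, *ZNF581* with 4 and *ZNF787* with 7 were high members without a KRAB match.

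Few members were called different between the groups, and few of all genes were. A gene that was not called may still differ. Differences were tested on log2(TPM + 1) with limma over all 14020 genes and Benjamini–Hochberg adjustment, and a log2 fold change above 0 means a higher level in knockdown cells. Leaving aside *ZNF114*, whose rise was known when the list was drawn up, limma called 0 of the other 135 members higher and 0 lower at an adjusted p under 0.05, where 0.371% and 0.67% of all genes tested were called (52 and 94 genes). The counts over all genes became 68 and 68 after median-of-ratios scaling and 78 and 83 after quantile normalization. At an unadjusted p under 0.05 there were 8 of the 135 members (5.93%), against 16.8% of all genes. Of the members, 79 (58.1%) lay above 0 and the median log2 fold change was 0.09, against 46.3% and −0.04 over all genes tested. ZNF genes of other chromosomes had 113 of 200 above 0 and a median of 0.04, and other protein-coding genes of chromosome 19 had 250 of 682 and a median of −0.13. A difference beyond 1 on the log2 scale was seen for 0 of the 135 members, and for 4.97% of all genes. Members were lower in level, with a median of 4.97 against 15.5 TPM, and log2(TPM + 1) understates a ratio at low levels. The standard deviation within groups was not smaller in members, with a median of 0.34 on the log2 scale against 0.30 over all genes. In bulk RNA, fewer cells with a transcript and less of it per cell cannot be told apart.

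Summed over all members, the level was 1096, 1120 and 949 TPM in control and 1148, 1171 and 1053 TPM in knockdown libraries. Without *ZNF114* the means were 1039 ± 85.7 TPM in control and 1045 ± 56.0 TPM in knockdown cells (SD, n = 3). The groups overlapped in both sums. A single gene thus made up most of the difference between the sums.

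*ZNF114* (ENSG00000178150.10) occupies chr19:48270081-48287608 of hg38, plus strand, apart from the large arrays, with *ZNF541* as the other gene of its cluster. Its canonical protein has 417 residues, a KRAB A box match and 3 finger matches, as few as any member with a KRAB match. The gene was listed at 21.1, 19.2 and 7.49 TPM in control and at 89.2, 78.0 and 69.9 TPM in knockdown libraries. The groups lay far apart, and control replicate 3 was the lowest of all. The means were 15.9 ± 7.36 and 79.0 ± 9.73 TPM (SD, n = 3), a ratio of 4.96, or 2.35 on the log2(TPM + 1) scale (standard error 0.35). In order of log2 fold change it was number 22 of the 14020 genes. Without control replicate 3 the log2 fold change was 1.92.

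The genes around *ZNF114* passed no test. Within 250 kb of its start lay 16 other protein-coding genes, of which 11 were tested and 0 called by limma, with log2 fold changes from −0.74 to 0.48 and 7 above 0. *KDELR1*, a receptor that returns proteins to the endoplasmic reticulum, had the highest value of these, with 144, 154 and 113 TPM in control and 175, 191 and 204 TPM in knockdown libraries, so that its groups did not overlap. *LIG1*, a DNA ligase of replication, had the lowest, and its groups did not overlap either. The antisense gene *ZNF114-AS1* overlaps 3.78% of the exons of *ZNF114* and was listed at 1.29 to 5.00 TPM over the 6 libraries, with a log2 fold change of −0.23. Whether reads were counted by strand was not stated in the sources used here.

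Besides *ZNF114*, 13 members were higher in all knockdown than in all control libraries, or 9.63% of the 135, and 9.89% of all genes tested did so. They include *ZNF554*, which was in the list through its knockdown values, and 12 of 132 remained among members with a mean of at least 1 TPM in both groups. The clearest was *ZNF581*, which encodes a short protein without a KRAB match. It was listed at 22.0, 29.3 and 21.8 TPM in control and at 40.0, 55.6 and 49.3 TPM in knockdown libraries. The lowest knockdown value exceeded the highest control value by more than the range of the controls. The difference of 0.96 on the log2 scale (with a standard error of 0.20) missed the threshold by limma, at an adjusted p = 0.0733. On the same strand, exons of *CCDC106* and *ZNF580* overlap 24.9% of its exons, so part of its reads may be assigned to either.

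Of the other 12, 9 belong to the cluster from *ZNF628* to *ZNF446*, and all but *ZNF497* held a KRAB match. Of all 136 members, 53 belong to that cluster and 102 held a KRAB match. *ZNF773* was at 5.34, 4.33 and 3.77 TPM in control and 7.68, 8.73 and 5.61 TPM in knockdown libraries (log2 fold change 0.60, standard error 0.24). *ZNF304*, known as a recruiter of silencing complexes to tumor suppressor genes, was at 4.59, 4.26 and 3.10 TPM against 7, 6.5 and 5.42 TPM (0.56, standard error 0.23). *ZNF211* was at 6.02, 5.49 and 3.32 TPM against 7.03, 8.22 and 7.27 TPM (0.55, standard error 0.25). In *ZNF558*, of the cluster from *ZNF557* to *ZNF846*, the gap between groups was narrow, with 2.78 TPM as the highest control and 2.95 TPM as the lowest knockdown value. None of these passed, with adjusted p of 0.259 for *ZNF773*, 0.269 for *ZNF304*, 0.313 for *ZNF211* and 0.356 for *ZNF558* from limma. *ZNF773* shares 11.1% of its 75-base words with other genes, chiefly its neighbour *ZNF419*, and an unnamed gene overlaps 22.9% of its exons on the same strand, so its value is uncertain.

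In the other direction, 5 of the 135 members (3.70%) were lower in all knockdown than in all control libraries, against 13.4% of all genes tested. *ZNF180* was listed at 12.4, 10.7 and 9.40 TPM in control and at 6.88, 6.04 and 4.74 TPM in knockdown libraries. The groups stood apart by −0.78 in log2 units (limma, standard error 0.21, adjusted p = 0.129). *ZNF544* was at 32.5, 39.5 and 45.2 TPM against 22.7, 27.5 and 23.7 TPM (limma, −0.63, standard error 0.19, adjusted p = 0.152). *ZNF274*, the SETDB1 recruiter named above, was at 27.7, 27.9 and 28.7 TPM against 26.3, 22.4 and 21.8 TPM. Its controls agreed within 1 TPM of each other, and the difference was −0.25 on the log2 scale (standard error 0.17). The remaining 2, *ZNF846* and *ZNF527*, had means under 2 TPM, where log2(TPM + 1) understates a ratio.

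**Figure D2:**
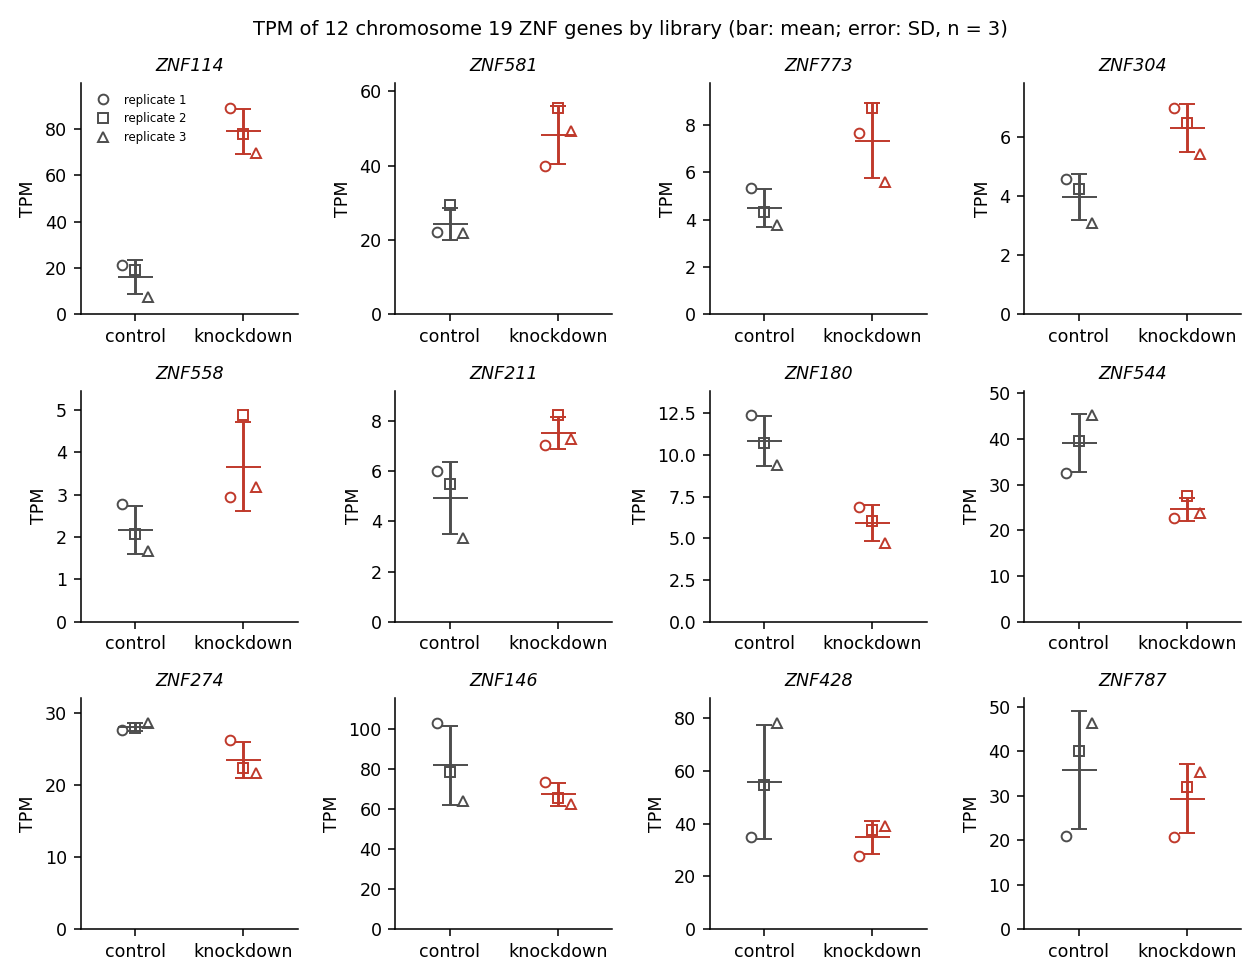
TPM of 12 members in each library, with replicates as symbols, the group mean as a bar and the SD (n = 3) as error. In the top row and in *ZNF558* and *ZNF211* all knockdown libraries lie above the controls, in *ZNF180*, *ZNF544* and *ZNF274* all lie below, and in *ZNF146*, *ZNF428* and *ZNF787* the groups overlap.

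By cluster at a gap of 1 Mb, medians of the log2 fold change were −0.05 to 0.11 in the larger clusters, against −0.04 over all genes. The 53 members from *ZNF628* to *ZNF446* had a median of 0.11 with 35 above 0, and single genes from −0.85 to 0.96. In the 24 members from *ZNF575* to *ZNF296* the median was 0.03 with 13 above 0, and values reached from −0.78 for *ZNF180* to 0.67. In the 12 members from *ZNF557* to *ZNF846* the median was 0.01 with 6 above 0. The 13 members from *ZNF146* to *ZNF573* were the exception in count, with 2 above 0, *ZNF529* and *ZNF420*, although the median was only −0.05. *ZNF529* was listed at 9.65, 7.94 and 7.29 TPM in control and 13.6, 10.3 and 10.7 TPM in knockdown libraries (limma, 0.43, standard error 0.21, adjusted p = 0.339), and antisense genes overlap 24.0% of its exons.

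At a gap of 1 Mb, the larger medians were in small clusters. This depends on the gap, since at 0.5 Mb the 41 members from *ZNF264* to *ZNF446* had a median of 0.21. The 3 members from *ZNF546* to *ZNF780A* were all above 0 with a median of 0.45, the 6 from *ZNF653* to *ZNF490* had a median of 0.32 with 5 above 0, the 5 from *ZNF302* to *ZNF792* 0.24 with 4 above 0 and the 4 from *ZNF554* to *ZNF77* 0.21 with 3 above 0. *ZNF780B*, the highest from *ZNF546* to *ZNF780A*, was at 11.99, 8.19 and 6.38 TPM in control and 13.9, 14.3 and 8.77 TPM in knockdown libraries, so that the groups overlapped. *ZNF302* was at 29.4, 19.5 and 13.6 TPM against 35.7, 28.5 and 21.4 TPM, and overlapped too. In both genes replicate 3 was the lowest library of its group. The sparse clusters from *ZNF101* to *ZNF254* and from *ZNF175* to *ZNF331* had medians of −0.03 (4 members) and 0.02 (6 members). No test between clusters was run, since neighbouring genes of 1 library are not replicates. Summed TPM overlapped between the groups in each cluster with at least 3 members, with 192, 205 and 180 TPM in control and 169, 188 and 162 TPM in knockdown libraries from *ZNF575* to *ZNF296* and 395, 489 and 449 TPM against 433, 495 and 447 TPM from *ZNF628* to *ZNF446*.

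**Figure D3:**
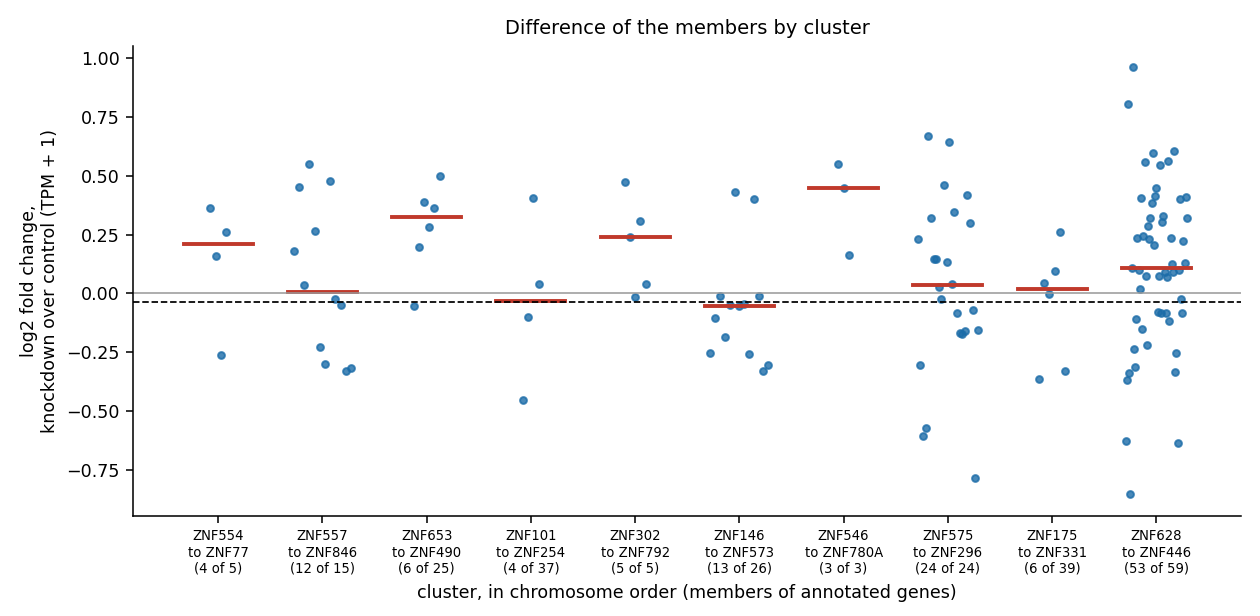
Log2 fold change of each member (points, knockdown over control on log2(TPM + 1)) by cluster in chromosome order, for the clusters with at least 3 members, with the cluster median in red and the median of all 14020 genes as a dashed line. Medians lie between −0.05 and 0.45, and points of every cluster lie on both sides of 0 except the 3 from *ZNF546* to *ZNF780A*.

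The libraries differed along GC content, and the members followed. Over all 14020 genes the Spearman correlation of a library's deviation from the gene mean with exonic GC content was −0.61, 0.29 and 0.49 in control and −0.52, 0.02 and 0.34 in knockdown replicates 1, 2 and 3. Over the 136 members, which share those libraries, it was −0.60, 0.33 and 0.35 in control and −0.42, 0.08 and 0.38 in knockdown replicates. The 22 members with a GC content over 55%, of which 2 held a KRAB match, had median deviations of −0.43, 0.26 and 0.23 in control and −0.18, 0.10 and 0.23 in knockdown replicates. The 34 members under 42% had 0.30, −0.14 and −0.42 in control and 0.33, 0.07 and −0.18 in knockdown replicates. Replicate 1 of either group thus read GC-poor zinc finger genes higher and GC-rich ones lower. *ZNF787*, with 65.4% GC, was at 21.0, 40.0 and 46.4 TPM in control and 20.6, 32.0 and 35.4 TPM in knockdown libraries, a wider range within groups than between their means.

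**Figure D4:**
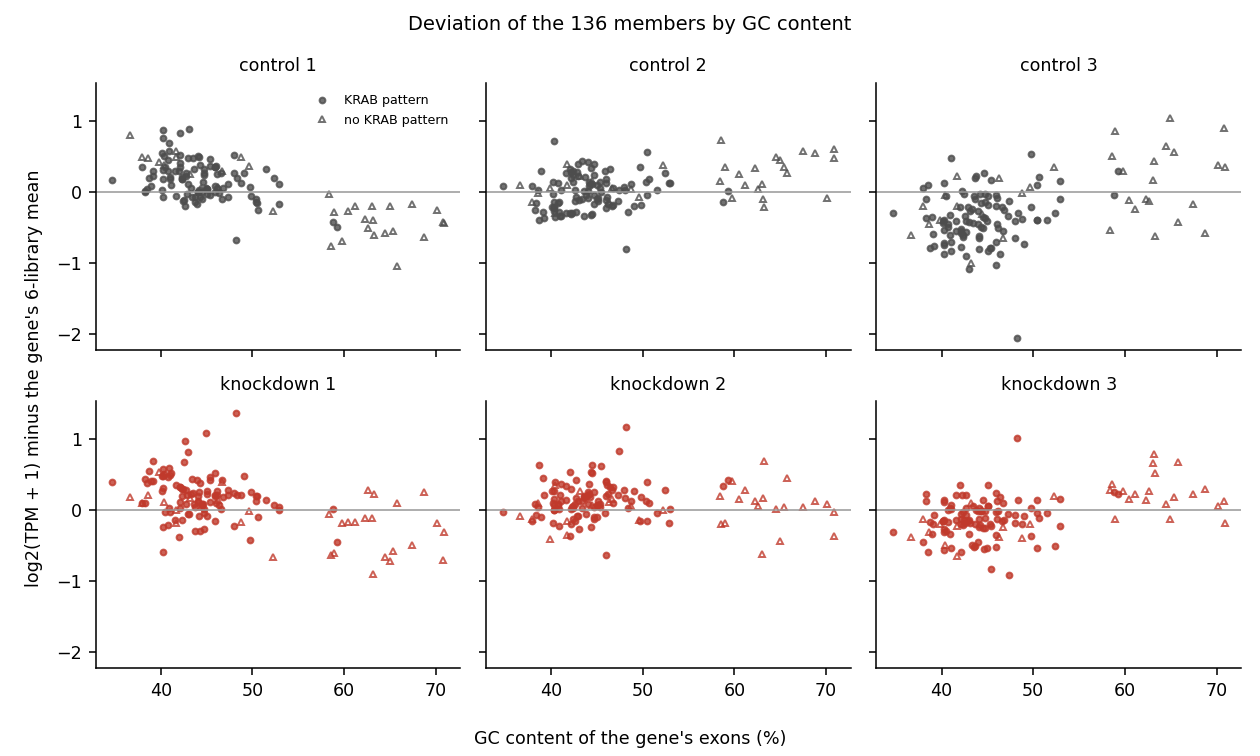
Deviation of log2(TPM + 1) from the mean of the 6 libraries for each of the 136 members, against the GC content of its exons in %, with 1 panel per library and symbols for members with and without a KRAB A box match. The points fall with GC content in replicate 1 of both groups and rise in control replicates 2 and 3 and in knockdown replicate 3.

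When the trend with GC content was removed from each library before the fit, 8.6% of all genes were called and, *ZNF114* left aside, 4 of 135 members. These were *ZNF581* (log2 fold change 1.10, adjusted p = 0.0187), *ZNF524* (0.98, adjusted p = 0.035) and *ZNF224* (0.63, adjusted p = 0.0257) with higher and *ZNF180* (−0.79, adjusted p = 0.019) with lower values in knockdown cells, all from limma. *ZNF224*, known as a transcriptional repressor of the aldolase A gene, was listed at 11.97, 8.55 and 6.42 TPM in control and at 16.4, 14.7 and 11.8 TPM in knockdown libraries. Its lowest knockdown value lay just under its highest control value, and the antisense gene *ZNF225-AS1* overlaps 42.4% of its exons. *ZNF524* was at 3.59, 10.4 and 6.08 TPM against 9.13, 11.9 and 14.1 TPM, and overlapped as well. *ZNF524* and *ZNF224* were not named by the rule for named genes and were chosen after their values were seen. After this step, the median over members was 0.12 with 81 above 0, and that over all genes 0.00.

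Members with and without a KRAB match were set side by side for their direction. The group without a match also holds KRAB genes that the pattern missed, among them *ZNF180* and *ZNF461*. With a match, 66 of 102 lay above 0 with a median of 0.13, and without, 13 of 34 with a median of −0.05. After removal of the GC trend these were 65 of 102 with 0.14 and 16 of 34 with −0.03. *ZNF784* and *ZNF628*, without a match, had the lowest values of the GC-rich members, −0.85 and −0.63, each with overlapping groups. Over the 136 members, the Spearman correlation of the log2 fold change was −0.07 with GC content, −0.06 with exonic length and 0.08 with the number of finger matches. These describe genes of the same 6 libraries and carry no test.

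A list of 28 genes was drawn up around the corepressors through which KRAB proteins act. It was chosen with earlier results of these data known, so its shares are a description. Most belong to the TRIM28, SETDB1, HP1, NuRD, DNA methylation, HUSH, SUMO and H3K9 methyltransferase machinery. It also holds *NCOR1*, *SCAND1* and *ZFP57*, the last itself a KRAB gene, which was at 0 TPM and not tested. Of 26 tested, 0 were called in either direction by limma, 22 lay below 0 and the median log2 fold change was −0.24, against −0.04 over all genes. In 9 of 26 all knockdown libraries were lower than all controls, in 0 they were higher, and 13.4% of all genes tested had the lower pattern. *TRIM28*, the adaptor that binds the KRAB domain, was listed at 691, 812 and 854 TPM in control and at 515, 568 and 572 TPM in knockdown libraries. The groups did not overlap, with −0.50 in log2 units (standard error 0.13, adjusted p = 0.113). With the GC trend removed, limma gave −0.37 for *TRIM28* (adjusted p = 0.111), whose exons have 62.5% GC. *SETDB1*, the methyltransferase that TRIM28 brings in, was at 19.6, 16.9 and 21.6 TPM against 20.4, 21.8 and 24.1 TPM, with overlapping groups and 0.18 (standard error 0.18).

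*UHRF1* and *DNMT1*, genes of DNA methylation maintenance, and *ATF7IP2* (−0.87) had the largest differences of that list, followed by *SUV39H1* (−0.68). Values of *ATF7IP2* and *SUV39H1* are given under Other observations. *UHRF1*, which brings the maintenance methyltransferase to hemimethylated DNA, was listed at 73.4, 87.8 and 119 TPM in control and at 39.2, 52.4 and 52.1 TPM in knockdown libraries (limma, −0.93, standard error 0.22, adjusted p = 0.0949). *DNMT1*, that methyltransferase, was at 106, 131 and 178 TPM against 69.6, 78.4 and 71.8 TPM (limma, −0.88, standard error 0.21, adjusted p = 0.0922). *HDAC1*, a deacetylase subunit of NuRD, was at 178, 163 and 140 TPM against 112, 108 and 98.2 TPM (limma, −0.59, standard error 0.15, adjusted p = 0.119). *UHRF1*, *DNMT1* and *HDAC1* were lower in every knockdown library without passing the threshold. With the GC trend removed, 4 of the 26 were called lower, *UHRF1*, *DNMT1*, *HDAC1* and *HDAC2*. *MPHOSPH8*, a subunit of HUSH, and *ZFP57*, an imprinting KRAB gene, were listed at 0 in all 6 libraries.

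**Figure D5:**
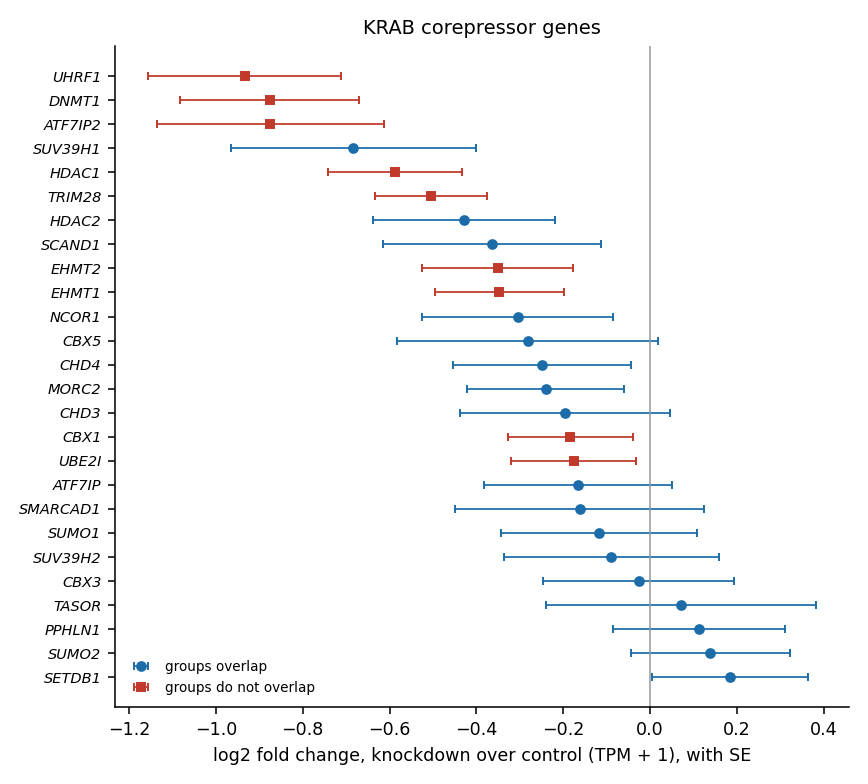
Log2 fold change (knockdown over control on log2(TPM + 1), with its standard error) of the 26 KRAB corepressor genes tested, with red squares for genes whose groups did not overlap. Values run from −0.93 for *UHRF1* to 0.18 for *SETDB1*, and all 9 squares lie below 0.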

How the data were processed

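Gene expression was measured by poly(A) RNA–Seq of SK–Hep–1 cells, with 3 libraries per group. Per the methods, the authors used fastp for trimming, STAR for alignment and RSEM for quantification and deposited TPM values, whereas the submitters' processing notes list fastp and HISAT2 2.0.5 with hg38. Read numbers cannot be had from TPM, depth is therefore unknown, and precision rests on 3 libraries per group. In each library 20127 to 21675 genes were above 0. All 62700 gene identifiers matched GENCODE Release 44, which gave names, positions, exonic length and GC content, although the methods name another release.

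limma 3.58.1 (lmFit and eBayes, trended, 2-sided, no replicate block) was run in R 4.3.3 on log2(TPM + 1) of the 14020 genes that averaged 1 TPM or more, and calls were made at an adjusted p (Benjamini–Hochberg) under 0.05. Groups were called apart where all values of one exceeded all of the other. Clusters were split at gaps of over 1 Mb between start sites. Fingers were counted as C, 2 to 4 residues, C, 12 residues, H, 3 to 5 residues, H in the canonical translation, and a KRAB A box by a pattern widened after its first matches were seen. Shared sequence was the share of 75-base words of the canonical transcript found in other genes. Members and lists were chosen with earlier results of these data known. Named were *ZNF114*, the 8 highest members, called members, the 6 largest rises and 6 largest falls with groups apart, the highest and the most changed member of each cluster with at least 3, those next to 1 TPM, *RAB30-DT*, *TRIM28*, *SETDB1* and called corepressors. Other genes named were chosen after their values were seen.

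Alternatives were other pseudocounts (0.1, 5), other filters (none, 5 TPM), other scalings (median of ratios, quantiles, mitochondrial genes left out), an untrended or robust eBayes, arrayWeights, a replicate block, removal of each library's GC trend (loess, span 0.3), each library left out, thresholds of 0.01 and 0.1, members of at least 2 TPM and gaps of 0.5 and 2 Mb. On simulated data, the fit recovered 69.5% of the genes changed by 1 log2 unit and 95.5% of those changed by 2.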

Additional observations from a re-analysis of the deposited data

How the results depend on the processing

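Among all genes tested 52 were called higher and 94 lower. These became 4 and 9 without a filter, 57 lower without the eBayes trend, 1287 and 1931 with arrayWeights, 595 and 611 with the GC trend removed, 6 and 10 at 0.01 and 181 and 274 at 0.1. Whether the shared replicate numbers pair the libraries was left undecided. Control and knockdown libraries of replicate numbers 1, 2 and 3 varied together with correlations of 0.41, 0.0359 and 0.279. Libraries of unlike number gave −0.355 to 0.111. Numbers 1 and 3 thus lay above every unlike pair, and number 2 did not. A replicate block gave 311 and 550 calls, and together with removal of the GC trend 432 and 516. With 1 library left out, calls ranged from 6 to 182 higher and from 6 to 307 lower, the lowest without control replicate 2 and the highest without control replicate 1. Among the members, with 1 higher (*ZNF114*, whose rise was known when the list was drawn up) and 0 lower, there were 0 and 0 without a filter or at 0.01, 8 and 5 with arrayWeights, 4 and 1 with the GC trend removed, 2 and 1 with the replicate block, 3 and 1 with both, 2 and 0 at 0.1, and 0 to 1 higher with 1 library left out (0 without control replicate 2 or any knockdown replicate). Among the corepressors, with 0 in either direction, 1 was higher and 10 lower with arrayWeights, 4 were lower with the GC trend removed, 4 with the replicate block, 3 with both, 2 at 0.1 and 0 to 4 with 1 library left out.

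The median over members stayed between −0.01 and 0.19 under all alternatives run. Members above 0 fell to 36 at a mean of at least 5 TPM, where fewer members were tested. That filter also gave −0.053 for the cluster from *ZNF653* and −0.45 for that from *ZNF101*, each from 1 member. The median from *ZNF546* to *ZNF780A* was 0.22 with a pseudocount of 5 and 0.13 with a gap of 2 Mb, which joins it to a neighbour, and 0.26 to 0.67 with 1 library left out. That from *ZNF175* to *ZNF331* was −0.25 to 0.23 with 1 library left out. A gap of 0.5 Mb split the cluster from *ZNF628* to *ZNF446* into parts with medians of −0.17 (12 members) and 0.21 (41 members). Directions turned for members whose groups overlapped. With arrayWeights *ZNF358* was −0.18, *ZNF792* −0.031, *ZNF766* −0.14 and *ZNF470* −0.033. *ZNF653* was 0.085 with the GC trend removed, with or without the replicate block, and *ZNF792* was −0.11 after quantile normalization. With 1 library left out *ZNF653* ranged from −0.40 to 0.24, *ZNF792* from −0.15 to 0.070 and *ZNF766* from −0.22 to 0.56. The causes were not tested. Of 519 comparisons of the 28 named members with an alternative, 487 kept direction and side of the threshold. *RAB30-DT* was lower in all alternatives run, between −0.70 and −0.24.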

Other observations

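Around *MPHOSPH8* on chromosome 13, all 9 protein-coding genes whose starts lay within 600 kb, among them *PSPC1*, *ZMYM2* and *ZMYM5*, were listed at 0 TPM in all 6 libraries. A run of genes at 0 was thus also seen outside chromosome 19. Over the annotation, 4171 of 20046 protein-coding genes (20.8%) were listed at 0 in all 6 libraries.

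Among the genes of the silencing machinery, *ATF7IP2*, a relative of the SETDB1 partner *ATF7IP*, was listed at 9.62, 10.03 and 11.5 TPM in control and at 6.32, 6.49 and 3.32 TPM in knockdown libraries (log2 fold change −0.87, standard error 0.26, adjusted p = 0.152 by limma). *SUV39H1*, a histone H3K9 methyltransferase, was at 9.83, 17.6 and 20.5 TPM against 7.78, 10.6 and 9.33 TPM, with overlapping groups (−0.68, standard error 0.28, adjusted p = 0.276 by limma).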
